A study of Mus musculus with 14 samples.

Results

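The genes described here encode 9 receptors for circulating hormones and growth factors: the luteinizing hormone receptor Lhcgr, the nuclear receptors Esr1, Nr3c1, Vdr, Thra and Thrb, and the surface receptors Igf1r, Insr and Ghr. They were named by symbol, each symbol matched 1 label, and the 9 stand among 48714 labels listed in every library, of which 18207 were above 0. Their transcripts were measured in haematopoietic stem cells (HSCs) of C57BL/6 bone marrow that had been sorted by calcium level. A population labelled [Ca2+]high (calcium-high) and one labelled [Ca2+]low (calcium-low) had 7 libraries each, numbered 1 to 7, and each library was made from 100 cells. The labels give no age, sex, treatment, calcium reporter or surface gate for either population, and they do not tie the libraries to animals. The p-values below therefore describe the spread between these libraries, which may be technical. The genes were chosen by hormone system with expression values of these libraries (RPKM, reads per kilobase of gene length and per unit of library depth) already known, among them the difference of Lhcgr between the calcium groups. The values of Lhcgr are therefore given without a test, and the fits for the other 8 genes are no independent support.

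These receptors sense hormones in different places. Lhcgr is a G protein-coupled receptor of the cell surface that raises cyclic AMP when luteinizing hormone or chorionic gonadotropin binds, and it is best known from gonadal cells. Esr1 (estrogen receptor alpha), Nr3c1 (glucocorticoid receptor), Vdr (vitamin D receptor), Thra and Thrb (thyroid hormone receptors alpha and beta) bind their small ligands inside the cell and act on DNA as transcription factors. Igf1r and Insr are receptor tyrosine kinases that signal through insulin receptor substrates and PI3 kinase, and Ghr is a cytokine-type receptor that signals through JAK2 and STAT5. Haematopoietic stem cells are known to respond to estrogen, glucocorticoids and IGF1.

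Promoter sequence is shown for the genes whose calcium-high to calcium-low ratio was largest among those with a usable window (Lhcgr, Thrb and Vdr) and for Igf1r, the most abundant transcript. The windows come from RefSeq (build GRCm38.p6), cover up to 250 bases before a start, are cut to bases outside exons annotated in GENCODE M21, and are written 5′ to 3′ on the gene's strand. Capitals mark AGGTCA, the hexamer that many nuclear receptors bind, GGGCGG, the GC box, and TGTGGT, the RUNX core, on either strand. The GATA core AGATAA was searched too and was not found in these 4 windows. No matched motif overlapped another. The windows are chr17:88792015-88792264 (minus strand) for Lhcgr, chr14:17660710-17660891 (plus strand) for Thrb, chr15:97908311-97908546 (minus strand) for Vdr and chr7:67952007-67952256 (plus strand) for Igf1r. Those of Lhcgr and Igf1r lie before the gene spans given below. Those of Thrb and Vdr lie inside the spans, outside annotated exons, and so downstream of the outermost annotated start.
Lhcgr: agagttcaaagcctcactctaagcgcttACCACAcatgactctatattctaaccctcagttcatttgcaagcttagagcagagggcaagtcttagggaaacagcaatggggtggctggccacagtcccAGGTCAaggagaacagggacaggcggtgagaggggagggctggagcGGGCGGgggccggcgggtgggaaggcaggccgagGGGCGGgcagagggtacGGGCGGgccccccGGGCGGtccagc
Thrb: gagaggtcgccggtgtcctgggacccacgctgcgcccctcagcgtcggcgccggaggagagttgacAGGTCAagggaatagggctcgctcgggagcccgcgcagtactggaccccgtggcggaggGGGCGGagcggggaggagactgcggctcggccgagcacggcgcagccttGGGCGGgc
Vdr: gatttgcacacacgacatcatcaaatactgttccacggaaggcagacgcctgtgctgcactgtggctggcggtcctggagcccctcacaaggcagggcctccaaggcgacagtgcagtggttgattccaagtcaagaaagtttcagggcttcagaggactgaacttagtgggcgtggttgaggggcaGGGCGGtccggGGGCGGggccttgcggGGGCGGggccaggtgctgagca
Igf1r: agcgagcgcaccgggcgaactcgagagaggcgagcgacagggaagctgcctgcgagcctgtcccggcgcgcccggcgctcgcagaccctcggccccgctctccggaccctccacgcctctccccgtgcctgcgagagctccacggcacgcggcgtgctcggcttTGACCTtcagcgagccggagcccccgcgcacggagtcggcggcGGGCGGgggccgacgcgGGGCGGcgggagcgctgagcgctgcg
The Lhcgr window held GGGCGG 4 times, AGGTCA 1 time and TGTGGT 1 time. Among 32851 promoters in the table cut to the same 250 bases, 32.7% held GGGCGG at all, 4.09% held it 4 or more times, 14.02% held AGGTCA and 14.05% held TGTGGT. The Vdr window held GGGCGG 3 times, against 7.21% of promoters of its length with as many. The Thrb window held AGGTCA 1 time (10.3% of promoters of its length) and GGGCGG 2 times (8.28% with as many). The Igf1r window was the richest in G and C, at 77.6% with 42 CpG dinucleotides, where the median promoter had 52.4% and 6 CpG. A match describes letters and not binding. Windows of Esr1 and Ghr, from another start of each gene, held none of the 4 motifs, and 6 of the 9 genes had an entry in the table.

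The authors' library totals were 14275882 to 37151654 reads, of which the listed genes held 25.0% to 32.5%. All 10 HSC markers checked had a mean of 1 RPKM or more. Their summed level was 186 to 359 RPKM in calcium-high and 180 to 289 RPKM in calcium-low libraries. The replicate 3 libraries stood lowest in that sum, at 186 and 180 RPKM. Summed neutrophil markers were 767 RPKM in calcium-low replicate 3 and 1.34 to 77.4 RPKM in the 12 libraries of other numbers, and erythroid markers were 78.8 and 147 RPKM in the replicate 3 libraries against 8.47 to 61.0 RPKM. Replicates 1 to 3 and 4 to 7, which the labels list apart without calling them batches, differed in depth, and 4381 of 9921 tested genes (44.2%) differed between them by limma on the 7 means of same-numbered libraries. Reads of 4 Y-linked genes were 1298 to 1638 in replicates 1 and 2 and 0 to 4 in the others. The sex of the cells thus appears to differ between replicate numbers, alike in both calcium groups, and is mixed within replicates 1 to 3. Its part in the receptor values was not tested. In bulk samples of this kind, fewer cells with a transcript and less transcript per cell cannot be told apart.

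Igf1r was the most abundant of the receptor transcripts and Thrb the least. The mean over 14 libraries was 12.6 RPKM for Igf1r, 5.62 for Insr, 4.79 for Thra, 4.68 for Lhcgr, 4.65 for Nr3c1, 4.10 for Vdr, 2.34 for Esr1, 0.951 for Ghr and 0.310 for Thrb. Igf1r stood at percentile 93.2 and Thrb at percentile 35.6 of the 18207 genes above 0. The steps from Igf1r to Insr, from Vdr to Esr1, from Esr1 to Ghr and from Ghr to Thrb held in 14 of 14 libraries. Insr, Thra, Lhcgr, Nr3c1 and Vdr formed a middle group whose neighbours did not separate beyond their spread: Insr was above Thra in 11 libraries of 14, Thra above Lhcgr in 8, Lhcgr above Nr3c1 in 7 and Nr3c1 above Vdr in 7. Lhcgr was the third of the 9 in calcium-high libraries and the fifth in calcium-low libraries.

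The receptors with a mean below 1 RPKM were Thrb and Ghr. Thrb was below 1 RPKM in all 14 libraries. Ghr lay just outside the limit and reached 1 RPKM in 5 of 14 libraries, 4 of them calcium-high and 1 calcium-low. The nearest gene inside the limit was Esr1, which exceeded 1 RPKM in 14 of 14 libraries. The test across genes took those averaging at least 1 RPKM, so 7 of the 9 were in it.

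**Figure D1:**
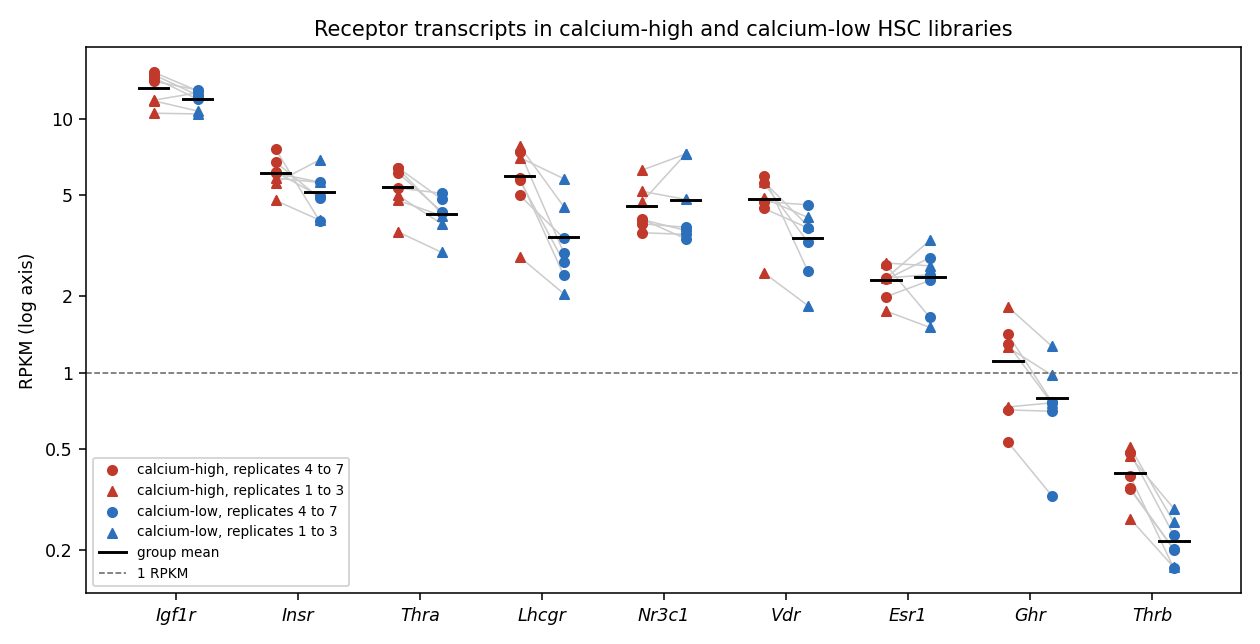
RPKM of the 9 receptor genes on a log axis, ordered by mean. Red points are calcium-high and blue points calcium-low libraries (7 each), triangles replicates 1 to 3, circles replicates 4 to 7, black bars group means, and grey lines join libraries with the same number. Igf1r lies above 10 RPKM in every library, Thrb below 1 RPKM in every library, and Ghr straddles the dashed line at 1 RPKM.

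Lhcgr, at chromosome 17, 88716481 to 88791990 (GRCm38, minus strand), was higher in calcium-high HSCs. Calcium-high libraries ranged from 2.85 through a median of 5.82 to 7.79 RPKM, and calcium-low libraries from 2.05 through 2.97 to 5.80 RPKM. Replicate 3 was the lowest library of each group, and 4 of 7 calcium-high libraries lay above the highest calcium-low one, so the groups overlapped. The means were 5.95 ± 1.70 and 3.41 ± 1.32 RPKM (SD, n = 7), a ratio of 1.74. Lhcgr was higher in the calcium-high library of 7 of 7 same-numbered pairs, with pair ratios of 1.21 to 2.50. In replicates 4 to 7 the groups did not overlap, at 4.98 to 7.41 against 2.42 to 3.39 RPKM. In replicates 1 to 3 they overlapped, at 2.85 to 7.79 against 2.05 to 5.80 RPKM. The difference on the log2(RPKM + 1) scale was 0.66 with all libraries and 0.72 without replicate 3, whose libraries had the lowest HSC marker sums. The values rest on 221 to 1227 reads per library.

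Among the steroid and vitamin D receptors, Vdr was higher in every calcium-high library than in its calcium-low partner, and Esr1 and Nr3c1 were at similar means in the groups. Vdr (chromosome 15, 97854425 to 97910630, minus strand) ranged from 2.47 through 4.86 to 5.97 RPKM in calcium-high and from 1.84 through 3.71 to 4.58 RPKM in calcium-low libraries. The groups overlapped, 5 of 7 calcium-high libraries lay above all calcium-low ones, and replicate 3 was the lowest library on each side, as for Lhcgr. The means were 4.81 ± 1.17 and 3.40 ± 0.944 RPKM (SD, n = 7), a ratio of 1.42, with pair ratios of 1.03 to 2.38. By limma the log2(RPKM + 1) difference was 0.40 (95% interval 0.05 to 0.76), with an adjusted p of 0.688 over all tested genes and 0.121 with the replicate number as a block. Vdr passed the threshold on the recovered reads, with an adjusted p of 0.0391 by limma-voom and 0.0214 with the block.

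Esr1 (chromosome 10, 4611593 to 5005614, plus strand) ranged from 1.75 through 2.35 to 2.70 RPKM in calcium-high and from 1.51 through 2.43 to 3.31 RPKM in calcium-low libraries. The calcium-high range lay inside the calcium-low range, and the calcium-high library was the higher of the pair in 3 of 7 pairs. The means were 2.30 ± 0.341 and 2.38 ± 0.639 RPKM (SD, n = 7), and the log2(RPKM + 1) difference was -0.02 with a 95% interval of -0.28 to 0.25 (limma adjusted p = 0.999, and 0.964 with the block). No direction can be read from Esr1, since its sign changed between settings.

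Nr3c1, the receptor for corticosterone, ranged from 3.56 through 4.02 to 6.27 RPKM in calcium-high and from 3.36 through 3.74 to 7.27 RPKM in calcium-low libraries. Replicates 1 to 3 were the high libraries of each group and replicates 4 to 7 the low ones. The means were 4.51 ± 0.949 and 4.79 ± 1.75 RPKM (SD, n = 7). The calcium-high library was the higher in 5 of 7 pairs although the calcium-high mean was the lower, pairs 1 and 3 being the exceptions, with a ratio of 0.645 in pair 1. The limma log2(RPKM + 1) difference was -0.04 (95% interval -0.39 to 0.31), with an adjusted p of 0.998 and 0.910 with the block. Like that of Esr1, its sign changed with the setting.

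Both thyroid hormone receptor genes were at higher levels in the calcium-high library of 7 of 7 pairs. Thra (chromosome 11, 98740638 to 98769006, plus strand) encodes the receptor form that predominates in heart, bone and brain. It ranged from 3.59 through 5.33 to 6.42 RPKM in calcium-high and from 2.97 through 4.24 to 5.08 RPKM in calcium-low libraries. Replicates 1 to 3 held the lowest values of each group, and 4 of 7 calcium-high libraries lay above all calcium-low ones. The means were 5.37 ± 1.03 and 4.20 ± 0.685 RPKM (SD, n = 7), a ratio of 1.28. By limma the log2(RPKM + 1) difference was 0.29 (95% interval 0.02 to 0.55), with an adjusted p of 0.717, and 0.135 with the block. It passed by limma-voom on recovered reads only with the block (adjusted p = 0.0227, and 0.05001 without it). Thra shares 263 exon bases with Nr1d1 on the opposite strand, and whether strand was used in counting is not given in the sources used here. Nr1d1 was at 1.81 ± 0.611 and 1.66 ± 0.710 RPKM (SD, n = 7), and its part in the Thra values was not tested.

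Thrb (chromosome 14, 17660261 to 18038090, plus strand) had the largest calcium-high to calcium-low ratio of the 9 genes at the lowest level. It ranged from 0.266 through 0.392 to 0.509 RPKM in calcium-high and from 0.169 through 0.201 to 0.291 RPKM in calcium-low libraries. The highest calcium-low library exceeded only calcium-high replicate 3, so 6 of 7 calcium-high libraries lay above all calcium-low ones. The means were 0.402 ± 0.0881 and 0.217 ± 0.0451 RPKM (SD, n = 7), a ratio of 1.85, and pair ratios ran from 1.56 to 2.32. Thrb had 57 to 260 reads per library over a gene model of 15271 bases, the length that the RPKM values imply, against 7403 annotated exon bases in GENCODE M21. Its RPKM would be larger on the shorter model, while the ratio between groups does not depend on the length. A fit of all 18207 genes above 0 gave a log2(RPKM + 1) difference of 0.20 for Thrb with a limma adjusted p of 0.133, and 0.126 with the block. On recovered reads with a minimum of 10 reads in 7 libraries, limma-voom gave a log2 difference of 0.98 with an adjusted p of 0.00151, and 0.91 with 0.00149 under the block. The fits with this read minimum were added after seeing the data, for the receptors below 1 RPKM. The pseudocount of 1 RPKM shrinks a difference at this level. With a pseudocount of 0.1 and no filter, also added after seeing the data, the log2 difference was 0.66. Its limma adjusted p was 0.274, and 0.153 with the block, so Thrb did not pass there either. Among the fits run Thrb passed in those on reads with the read minimum. Without the RPKM filter and with the pseudocount of 1 RPKM, 0.00549% of all genes passed by limma, and 0.0% with the block.

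Each of the growth factor and growth hormone receptors was higher in the calcium-high library of 6 of 7 pairs, with a mean ratio of 1.11 for Igf1r, 1.19 for Insr and 1.40 for Ghr. Igf1r (chromosome 7, 67952827 to 68233668, plus strand) ranged from 10.5 through 14.04 to 15.2 RPKM in calcium-high and from 10.4 through 12.4 to 13.0 RPKM in calcium-low libraries. Replicates 4 to 7 of the calcium-high group were the 4 libraries above all calcium-low ones, and the calcium-high library was the higher in 6 of 7 pairs. The means were 13.3 ± 1.86 and 11.99 ± 1.03 RPKM (SD, n = 7), a ratio of 1.11. The limma log2(RPKM + 1) difference was 0.13 (95% interval -0.10 to 0.35), with an adjusted p of 0.963 and 0.543 with the block. Limma-voom on recovered reads gave an adjusted p of 0.173, and 0.0360 with the block.

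Insr (chromosome 8, 3122061 to 3279617, minus strand) ranged from 4.76 through 6.09 to 7.57 RPKM in calcium-high and from 3.95 through 4.95 to 6.88 RPKM in calcium-low libraries. The highest calcium-low library was replicate 2, and 1 calcium-high library lay above it. The means were 6.11 ± 0.886 and 5.12 ± 1.03 RPKM (SD, n = 7), a ratio of 1.19, with the calcium-high library higher in 6 of 7 pairs. By limma the log2(RPKM + 1) difference was 0.22 (95% interval -0.03 to 0.48), with an adjusted p of 0.813, and 0.420 with the block. On recovered reads the limma-voom adjusted p was 0.0399 without the block and 0.158 with it, the reverse of the pattern for Thra and Igf1r.

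Ghr (chromosome 15, 3317760 to 3583492, minus strand) ranged from 0.532 through 1.26 to 1.81 RPKM in calcium-high and from 0.327 through 0.760 to 1.27 RPKM in calcium-low libraries. Replicate 5 was the lowest and replicate 2 the highest library of each group, and the ranges overlapped. The means were 1.11 ± 0.461 and 0.794 ± 0.285 RPKM (SD, n = 7), a ratio of 1.40, with the calcium-high library higher in 6 of 7 pairs. Without the filter on level, limma gave a log2(RPKM + 1) difference of 0.22 (adjusted p = 0.844, and 0.308 with the block). Limma-voom with a minimum of 10 reads in 7 libraries, added after seeing the data, gave an adjusted p of 0.192, which became 0.0409 under the block. Ghr had 51 to 225 reads per library.

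**Figure D2:**
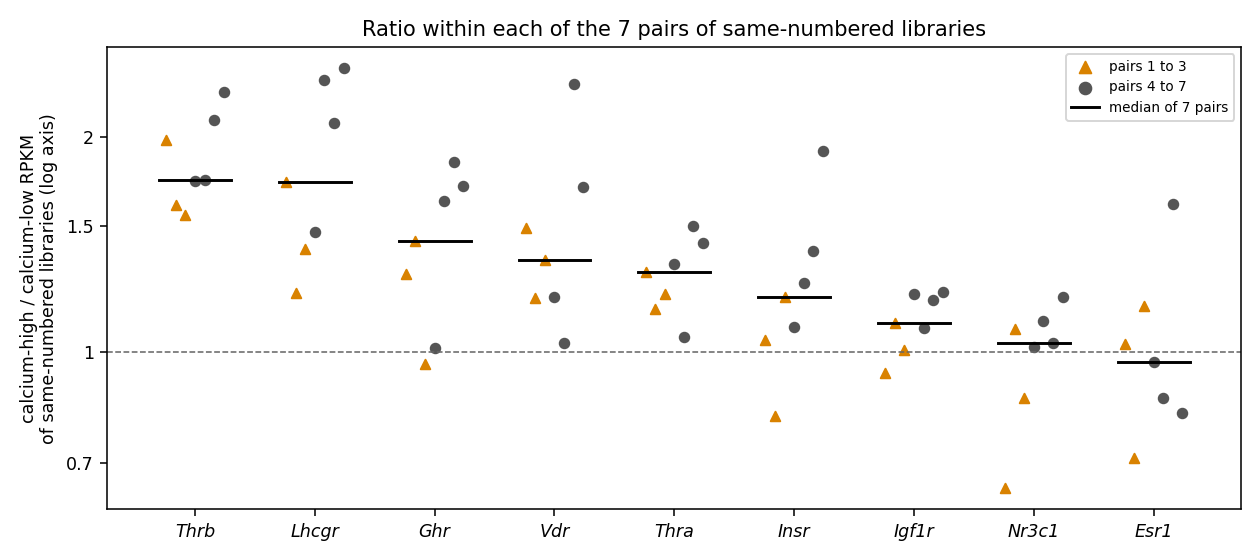
Ratio of calcium-high to calcium-low RPKM within each same-numbered pair, on a log axis, for the 9 receptor genes ordered by median ratio (black bars). Each gene has 7 points from pair 1 on the left to pair 7 on the right, and the dashed line marks a ratio of 1. All 7 points lie above the line for Lhcgr, Thrb, Vdr and Thra, 6 for Ghr, Insr and Igf1r, 5 for Nr3c1 and 3 for Esr1.

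The plot of pair ratios shows 4 receptors higher in calcium-high in 7 of 7 pairs (Lhcgr, Vdr, Thra and Thrb). Over the 18207 genes above 0 this held for 2.35%, but nothing is read from the comparison, because the set was chosen with this contrast known. Of the 6 tested receptors other than Lhcgr, 0 passed by limma on log2(RPKM + 1) without the block, where 0 of 9921 genes (0.0%) passed and 669 were at an unadjusted p under 0.05. Of the same 6, 0 passed with the replicate block, where 0.917% of genes passed (48 higher and 43 lower in calcium-high). By limma-voom on the recovered reads, Vdr and Insr passed without the block, against 7.05% of all genes, and Vdr, Thra and Igf1r passed with it, against 8.46%. With the read minimum in place of the RPKM filter, Vdr and Thrb passed without the block (6.48% of 12608 genes), and Vdr, Thra, Thrb, Igf1r and Ghr with it (8.25%). Every receptor that passed in any of these fits was higher in calcium-high HSCs. Most genes called on reads were higher there too, 443 of 699 by voom and 547 of 839 with the block. With the read minimum it was 614 of 817, and 737 of 1040 with the block, and nothing is read from the direction. Vdr was the receptor that passed in all 4 fits on reads, and Esr1 and Nr3c1 passed in none of the fits described.

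The levels of 3 receptors also differed between the replicates listed first and last, a measure that did not enter the choice of the genes. Nr3c1 was at 5.91 ± 1.19 RPKM over the 6 libraries of replicates 1 to 3 and 3.71 ± 0.239 RPKM over the 8 libraries of replicates 4 to 7 (SD). The ranges did not overlap, at 4.69 to 7.27 against 3.36 to 4.02 RPKM, and by limma on the 7 means of same-numbered libraries (3 against 4) the log2(RPKM + 1) difference was -0.54 (adjusted p = 0.00298). Thra was higher in replicates 4 to 7, at 5.34 ± 0.885 against 4.05 ± 0.752 RPKM (limma adjusted p = 0.0269). Igf1r was higher there too, at 13.6 ± 1.23 against 11.3 ± 0.896 RPKM (limma adjusted p = 0.0420). With 44.2% of all genes differing between these replicates, 3 of 7 tested receptors is near that share. For Lhcgr, Esr1, Vdr and Insr the limma adjusted p of this difference was 0.705, 0.965, 0.423 and 0.658.

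Within replicates 4 to 7 the calcium groups did not overlap for 5 of the 9 receptors, Lhcgr, Thra, Thrb, Igf1r and Insr, all higher in calcium-high. The same held for 10.3% of the 18207 genes above 0, and nothing is read from that comparison either. Insr was at 6.65 ± 0.679 against 4.85 ± 0.687 RPKM there (SD, n = 4), and at 5.39 ± 0.561 against 5.49 ± 1.45 RPKM in replicates 1 to 3 (SD, n = 3). Igf1r was at 14.7 ± 0.521 against 12.5 ± 0.485 RPKM in replicates 4 to 7 and at 11.4 ± 0.742 against 11.3 ± 1.20 RPKM in replicates 1 to 3. Thra was at 6.07 ± 0.504 against 4.61 ± 0.408 RPKM and at 4.45 ± 0.756 against 3.66 ± 0.609 RPKM. In replicates 4 to 7 alone, Thra and Insr passed by limma at adjusted p of 0.0418 and 0.0421, against 8.14% of all genes. The median log2(RPKM + 1) difference of all tested genes was 0.11 in replicates 4 to 7 and -0.20 in replicates 1 to 3, against -0.03 over all libraries. The change of the calcium difference between these replicates was tested as an interaction, which 0 of 9921 genes passed by limma without the block (2841 at an unadjusted p under 0.05, and 731 after median-of-ratios scaling) and 165 (1.66%) with it. None of the tested receptors passed in either fit. The interaction estimate for Insr was 0.39 (limma adjusted p = 0.209, and 0.147 with the block), and it was 0.06 after median-of-ratios scaling. With that scaling the estimate changed sign for Igf1r, from 0.20 to -0.17, and for Thra, from 0.11 to -0.22. It also changed sign for Vdr (0.14 to -0.17), Esr1 (0.09 to -0.18) and Nr3c1 (0.30 to -0.03). For Lhcgr the estimate was 0.43 before and 0.11 after that scaling. A larger calcium difference in replicates 4 to 7 therefore cannot be read for any of the tested receptors.

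**Figure D3:**
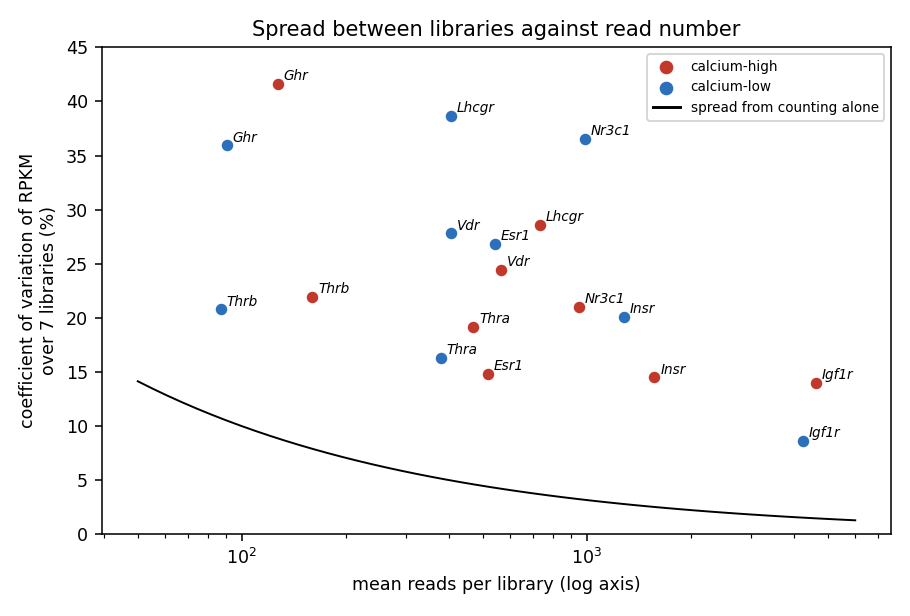
Coefficient of variation of RPKM over 7 libraries (in percent) against the mean number of reads per library (log axis) for the 9 receptor genes, calcium-high in red and calcium-low in blue. The black line is the spread that counting alone would give, and all 18 points lie above it, from 8.59% for Igf1r to 41.7% for Ghr.

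The plot of spread against read number shows that libraries of a group differed by more than counting error for every receptor. The variance between libraries was 3.43 times the counting variance for Thrb in calcium-low HSCs, the lowest value, and 126 times for Nr3c1 in calcium-low HSCs, the highest. Igf1r had the smallest coefficient of variation, 14.01% in calcium-high and 8.59% in calcium-low libraries. Ghr varied by 41.7% and 35.9%, and Lhcgr by 28.6% and 38.7%. Thrb, with nearly as few reads as Ghr, varied by 21.9% and 20.8%.

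Genes with the most similar pattern were found by Pearson r of log2(RPKM + 1) over the 14 libraries after the group means had been subtracted. For Lhcgr they were Rin2 (r = 0.960), Vipr2 (0.955) and Gabarapl1 (0.950), and for Vdr they were Cxx1c (0.952), Eya2 (0.947) and Sirt3 (0.942). Vipr2 encodes a receptor for vasoactive intestinal peptide and was at 4.87 and 4.06 RPKM in calcium-high and calcium-low libraries. For Nr3c1 they were Itga4 (0.984), the alpha 4 integrin subunit, Psmc6 (0.982) and Ppp2r2a (0.981). Among the genes nearest to Thra were Trp53i13 (0.966) and Rgl2_2 (0.962), and Igf1r was nearest to Tpst2 (0.973), Prr12 (0.964) and Rpusd1 (0.962). Insr was nearest to Crim1 (0.910), Hs1bp3 (0.897) and Rhbdd2 (0.894), and Esr1 to Jam3 (0.901), Elac1 (0.859) and Spg20 (0.856). These r values describe libraries that share a replicate order and depth, and they carry no p.

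The genes around the receptors were taken from 13 lists with 180 different genes, of which 105 were tested. By limma 0 of the 105 passed without the block. With the block 4 were higher and 1 lower in calcium-high HSCs, against 0.484% and 0.433% of all tested genes in these directions. In the gonadotropin lists the hormone subunit genes Cga and Fshb and the follicle-stimulating hormone receptor gene Fshr were listed at 0 in 14 libraries, where 3 reads of a gene of 1 kilobase would be 0.0808 to 0.210 RPKM (counting error only). Of 16 genes of cyclic AMP signalling, the pathway that Lhcgr raises, 8 lay higher and 8 lower in calcium-high libraries, with a median log2(RPKM + 1) difference of -0.03, as for all tested genes. Pde4b, a phosphodiesterase that degrades cyclic AMP, was at 7.31 ± 3.74 against 11.1 ± 2.04 RPKM (SD, n = 7) and fell by limma with the block (adjusted p = 0.0364, and 0.393 without it), lower in 6 of 7 pairs. Gnas, the stimulatory G protein subunit, was at 16.0 and 17.1 RPKM, Prkacb, a catalytic subunit of protein kinase A, at 15.4 and 15.0 RPKM, and Crem, a cyclic AMP-responsive factor, at 2.09 and 2.98 RPKM, and none of the 3 passed. Of 9 steroid synthesis genes 3 were tested and 0 passed, with Star, the mitochondrial cholesterol carrier, at 1.25 and 1.04 RPKM.

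None of the tested genes around the steroid and vitamin D receptors passed by limma with or without the block. Of 7 tested coregulators and targets of estrogen receptors 4 lay higher and 3 lower, with Ncoa2 at 10.2 and 10.1 RPKM and the corepressor Nrip1 at 7.24 and 8.45 RPKM, lower in 7 of 7 pairs. The 5 tested glucocorticoid receptor chaperones had lower means in calcium-high libraries (median -0.16), as did 5730 of 9921 tested genes. Hsp90ab1 was at 247 and 268 RPKM and Hsp90aa1 at 70.1 and 85.3 RPKM, and the calcium-high library was the higher in 2 and 3 of 7 pairs. Of 9 tested glucocorticoid targets 4 lay higher and 5 lower, with Dusp1 at 59.4 and 57.2 RPKM, Per1 at 16.5 and 19.2 RPKM and Sgk1 at 0.983 and 1.66 RPKM. The vitamin D target Cyp24a1, the enzyme that inactivates vitamin D, was listed at 0 in 14 libraries. Rxra, the partner with which Vdr and the thyroid hormone receptors bind DNA, was at 1.69 and 1.23 RPKM and Rxrb_1 at 4.23 and 4.38 RPKM.

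The thyroid list held 9 tested genes, of which 4 lay higher and 5 lower and 0 passed. The corepressor Ncor1 was at 11.95 and 12.8 RPKM in calcium-high and calcium-low libraries. Dio3, the deiodinase that inactivates thyroid hormone, was listed at 0 in 14 libraries. Dio2, the deiodinase that activates it, was at 0.840 and 0.877 RPKM and was chosen for mention after its values were seen.

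Among ligands and other receptors of the insulin and IGF family, 3 of 14 genes were tested. Insrr, an orphan relative of Insr and Igf1r, was at 1.52 ± 0.460 against 0.620 ± 0.316 RPKM (SD, n = 7), higher in 7 of 7 pairs. It rose by limma with the block (adjusted p = 0.0411, and 0.152 without it). Insrr lies within Pear1 on the opposite strand, with 0 shared exon bases, and Pear1 was at 19.3 ± 4.91 and 15.9 ± 3.64 RPKM. Reads from the Pear1 strand could not be told apart without strand information, and this was not tested. Igf2r_1 was at 3.84 and 2.47 RPKM and Igfbp4 at 13.4 and 16.2 RPKM, and neither passed. Grb10, an adaptor that inhibits both receptors, was at 14.04 and 10.6 RPKM (adjusted p = 0.133 by limma with the block), and Grb2, an adaptor to the RAS pathway, was at 14.04 and 16.7 RPKM, lower in 7 of 7 pairs (adjusted p = 0.2004). Irs2 was at 3.88 and 5.17 RPKM, while Irs1 had 95 reads over all libraries. Of 18 genes of PI3 kinase, AKT, mTOR and FOXO signalling 8 lay higher and 10 lower and 0 passed, with Akt1 at 24.8 and 23.2 RPKM and Foxo3 at 22.4 and 23.2 RPKM.

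The growth hormone list had 10 tested genes, with 3 higher, 7 lower and 0 passing by limma with or without the block. Cish, a STAT5 target that dampens cytokine receptors, was at 3.56 and 2.48 RPKM, higher in 7 of 7 pairs (adjusted p = 0.226 by limma with the block). Stat3 was at 18.2 and 19.9 RPKM, Ptpn6 at 23.8 and 22.9 RPKM and Socs3 at 1.05 and 1.53 RPKM. Gh had 1 read in all and Prl none.

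Several genes of these lists lay below 1 RPKM and were picked out after their values were seen. Igf1, the ligand of Igf1r, ranged from 0.0881 through 0.434 to 1.12 RPKM in calcium-high and from 0.0138 through 0.0850 to 0.139 RPKM in calcium-low libraries. The groups met only at the lowest calcium-high library, and 6 of 7 lay above all calcium-low ones. With the read minimum, limma-voom gave adjusted p of 0.00347 for Igf1 without and 0.00142 with the block, while limma without the RPKM filter gave 0.226 and 0.161. Socs2, an inhibitor of growth hormone signalling that STAT5 induces, was at 1.12 ± 0.558 and 0.513 ± 0.154 RPKM (SD, n = 7; limma-voom adjusted p = 0.0101 without and 0.00132 with the block, limma without the RPKM filter 0.385 and 0.186). Pgr, the progesterone receptor gene and a classical estrogen target, was at 0.651 ± 0.202 and 0.344 ± 0.166 RPKM (limma-voom adjusted p = 0.0234 without and 0.0135 with the block, limma without the RPKM filter 0.336 and 0.190). Bcl6, of the growth hormone list, lay the other way, at 0.756 ± 0.153 and 1.14 ± 0.380 RPKM (SD, n = 7). Its ranges overlapped, at 0.470 to 0.923 against 0.679 to 1.75 RPKM, and no fit is given for it. With the read minimum limma-voom tested 125 of the 180 list genes and called 19 higher and 8 lower, and 18 and 3 with the block, against 4.87% and 1.61%, and 5.85% and 2.4%, of all genes in these directions.

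Of 42 other nuclear receptor genes 17 were tested, and 3 passed by limma with the block, all higher in calcium-high HSCs. Rarb (retinoic acid receptor beta) was at 1.46 ± 0.534 and 0.636 ± 0.369 RPKM (SD, n = 7; limma adjusted p = 0.0364 with the block and 0.292 without). Rora was at 1.85 ± 0.360 and 1.08 ± 0.354 RPKM (limma adjusted p = 0.0476 with the block and 0.239 without), and Rarb and Rora were each higher in 7 of 7 pairs. Rarb shares 1793 exon bases with Top2b on the opposite strand, which was at 8.09 ± 2.06 and 9.60 ± 3.73 RPKM, so reads of Rarb are uncertain. The most abundant of the list was Nr4a1, an immediate early gene, at 67.0 ± 13.2 and 107 ± 45.2 RPKM (limma adjusted p = 0.121 with the block). Esr2, the beta form of the estrogen receptor, had 57 reads over all libraries, against 7396 for Esr1.

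**Figure D4:**
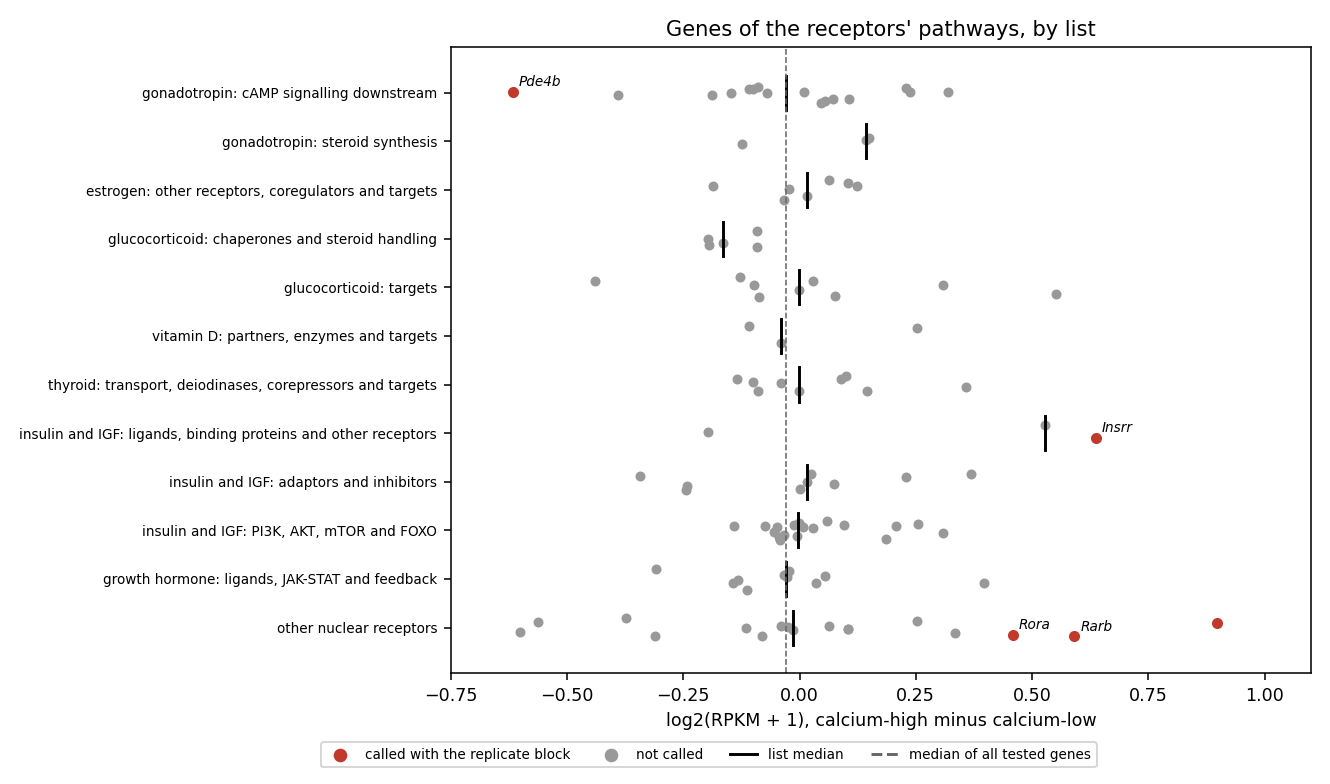
Difference in log2(RPKM + 1), calcium-high minus calcium-low, of each tested gene of 12 lists around the receptors (a list with no tested gene is left out). Each point is a gene, red where limma with the replicate block called it and grey elsewhere, with a black bar at the list median and a dashed line at the median of all tested genes (-0.03). Of the 5 red points, Pde4b lies on the left, and Insrr, Rarb and Rora, which are labelled, lie on the right.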

How the data were processed

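Total RNA of 100 sorted cells per library was copied with not-so-random primers, made double-stranded with Klenow fragment and prepared with Nextera XT, per the labels' protocols. The authors deposited 1 RPKM value per gene and library. The submitters' processing notes name edgeR, GRCm38 and mm10; the aligner, annotation and strand of counting are not given in the sources used here. Of 48737 labels per file, 23 that had become numbers were left out.

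Differences between calcium-high and calcium-low were fitted with limma 3.58.1 (R 4.3.3, mean-variance trend) on log2(RPKM + 1) over the 9921 genes averaging at least 1 RPKM, two-sided, Benjamini-Hochberg adjusted p under 0.05. Fold changes are on that scale, which understates those of low genes. Whole reads were recovered from the RPKM of all 18207 genes above 0 (within 0.001 reads in 14 libraries) and fitted by limma-voom with library weights, which called 699 genes. The voom fits scaled each library by its reads in listed genes, while RPKM uses the authors' library total. They therefore differ from the RPKM fits in scaling too. The median log2 difference of the tested genes was 0.04 by voom and -0.03 on log2(RPKM + 1). Same-numbered libraries deviated together (r = 0.384 to 0.715 in 7 pairs), so the replicate number was also fitted as a block; the labels do not say what a number shares. Other alternatives were scalings, pseudocounts of 0.1 and 5, no filter, each part of the replicate numbers and leaving out each number. The fit on means of same-numbered libraries was chosen after seeing the data. The limma fits with and without the block were also run on simulated data, with differences larger than those of the receptors. The outcome is not reported here, and it cannot show whether differences as small as those of the receptors would be found. Python 3.11.15, pandas 2.3.3, scipy 1.17.1 and matplotlib 3.10.9 were used.

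The receptor genes, lists and markers were chosen with earlier results of these data known. Besides the receptors, the text names in each list the genes called with or without the block. It also names some of the 2 with the highest mean and the 2 with the largest difference, and for each tested receptor the 3 genes most like it in pattern. Genes listed at 0, those with few reads and Igf1, Socs2, Pgr, Bcl6 and Dio2 were picked after their values were seen. Some genes that this rule picks are not reported here. Summed markers not given above had a maximum of 62.4 RPKM for megakaryocyte, 184 for monocyte and macrophage, 6.43 for B and plasma cell, 33.0 for T and NK cell, 14.2 for stromal and 21.3 for endothelial genes. Monocyte and macrophage sums were 43.4 to 184 RPKM in calcium-high and 56.5 to 83.0 RPKM in calcium-low libraries. T and NK cell sums were 4.55 to 18.7 RPKM in calcium-high and 11.7 to 33.0 RPKM in calcium-low libraries. The part of such cells in the values of other genes was not tested.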

Additional observations from a re-analysis of the deposited data

How the results depend on the processing

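The number of genes called was 0 by limma without the block and 91 with the replicate block, 4 with median-of-ratios scaling, 3 with upper-quartile scaling and 328 when the block was combined with that first scaling (202 higher and 126 lower, against 48 and 43 with the block alone). It was 1 without the filter, 51 with the replicates listed first and last as a term, 808 in replicates 4 to 7 alone, 699 by voom on reads (443 higher and 256 lower) and 839 with the block. The read minimum with voom, chosen after seeing the data, gave 817, and 1040 with the block. Leaving out each replicate gave 0 to 119 genes, the 119 without replicate 3. With the block it gave 0 to 302: 8 without replicate 1, 3 without 2, 302 without 3, 0 without 4 or 7, 12 without 5 and 2 without 6. The interaction called 3 genes with upper-quartile scaling and 165 with the block, 0 of them receptors.

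Receptors called other than Lhcgr numbered 0 in the reported fit, 2 by voom, 3 by voom with the block, 2 in replicates 4 to 7 alone, 2 by voom with the read minimum and 5 with that and the block; leaving out a replicate gave 0 in each case. The Esr1 difference changed sign with upper-quartile scaling (0.0045) and in replicates 4 to 7 (0.0214), and without replicate 2 (0.0408), 5 (0.00433) or 7 (0.0142), in a range of -0.10 to 0.0408 over the replicates left out. That of Nr3c1 changed sign by voom (0.0580, and 0.0427 with the block), by voom with the read minimum (0.0558 and 0.0401), in replicates 4 to 7 (0.0919) and without replicate 1 (0.0454), in a range of -0.0782 to 0.0454 over the replicates left out. That of Insr was -0.00043 in replicates 1 to 3. The cause of these changes was not tested. Lhcgr, Vdr, Thra and Igf1r were higher in calcium-high in all 32 settings, and Thrb and Ghr in the 6 settings that held them. These settings are not separate checks, since several fits on log2(RPKM + 1) return the same estimate by design. Adding the block or the replicates listed first and last as a term, or dropping the filter, left the estimates unchanged. In replicates 1 to 3 alone the Igf1r difference was 0.014. On the RPKM scale the block changed no call among the 6 tested receptors other than Lhcgr, for which no call is given, and 5 of 14 libraries correlated best with their own number. Depth limits Thrb and Ghr most, with as few as 57 and 51 reads in a library.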
